A study of Mus musculus with 6 samples.

Results

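The Wnt ligands, receptors and antagonists of neural progenitor cells (NPCs) were examined as 1 group of genes, chosen by 17 patterns of gene symbols and by no measured value. The patterns took in the Wnt genes, their maturation factors Wls and Porcn, the Frizzled receptors, the coreceptors Lrp5 and Lrp6, the secreted antagonists, the R-spondins with the genes that act with them, 4 intracellular inhibitors and the Lef1 and Tcf7 factors. Of the 15095 genes with a row in the authors' deposited table, 56 matched. Of the 60 mouse genes that the patterns name in the reference annotation, Wnt2, Wnt8a, Wnt16 and Dkk4 had no row and were not analysed here.

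Wnt proteins are lipid-modified signals that cells secrete over short distances. In the canonical pathway they bind a Frizzled receptor together with LRP5 or LRP6, which stops the destruction of beta-catenin, so that beta-catenin enters the nucleus and acts with LEF and TCF factors on target genes. In the developing neural tube Wnts are made in the dorsal midline and elsewhere and act on progenitor proliferation and on dorsal and posterior identity, whereas secreted antagonists limit their reach.

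PolyA RNA was sequenced from NPCs at day 8, in 3 wild-type and 3 Setd2-KO libraries. All of these cells came from HA36CB1 mouse embryonic stem cells, by 4 days as floating aggregates and 4 further days with 5 uM retinoic acid. The Setd2-KO line had been made by CRISPR from the same parental line and lacks SETD2, the methyltransferase for H3K36me3 in the bodies of transcribed genes. Neither the labels nor the methods state whether the libraries of a genotype were separate differentiations or whether the knock-out line is 1 clone.

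The level used here is the average log2 CPM (CPM being the reads of a gene scaled to library size), a single value per gene that the authors computed over the 6 libraries of both genotypes. It has no SD, and the level in each genotype, the depth of each library and the targeted gene in each library cannot be given from it. The columns of the authors' own comparison of the genotypes were not used, so the genotypes are not compared. In RNA of a bulk culture, fewer cells of a type and less RNA per cell cannot be told apart. Average log2 CPM is given to describe a gene, and different genes were compared by the level divided by transcript length, as average log2 CPM per kilobase of the canonical transcript. Because the length that was sequenced is not known, 4 further length measures were tried, and an order of 2 genes is stated without further remark only where all 5 gave it.

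The sample titles call the cells NPCs, while the labels' cell type field gives embryonic stem cells. Neural progenitor markers were at a median of 5.70 average log2 CPM per kilobase (11 of 12 listed), and pluripotency markers at 0.42 (5 of 6 listed), against 2.77 for all genes of the table. Hox genes of the hindbrain and spinal cord were at a median of 6.27 per kilobase (8 of 8 listed) and forebrain and midbrain markers at 0.00 (6 of 6 listed). Markers of neurons had a median of 5.00 per kilobase (7 of 7 listed) and those of the endoderm 2.61 (5 of 5). The medians were 2.26 for the roof plate and dorsal neural tube (5 of 6) and 1.56 for the floor plate and ventral neural tube (5 of 5). They were 1.83 for the neural crest (5 of 5) and 1.37 for the mesoderm (4 of 5). Other length measures were not tried for these marker lists. Which of these cells made the RNA of each Wnt pathway gene was not tested.

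The 56 genes ranged from -5.68 for Rspo2 to 7.03 for Sfrp2 in average log2 CPM per kilobase, and their summed CPM made up 0.226% of the total. Their median was 2.18 per kilobase, and 20 of the 56 lay above the median of all genes on that scale. The secreted antagonist Sfrp2 had the highest level per kilobase under each of the 5 length measures. Above the median of all genes per kilobase were 2 of 16 ligands, both maturation genes, 3 of 10 Frizzled receptors and both coreceptors. So were 3 of 9 secreted antagonists, 2 of 9 genes of the R-spondin group, 3 of 4 intracellular inhibitors and 3 of 4 nuclear factors. These counts are for the canonical transcript and can change with the length. With the union of exons Wnt7a, Wnt6 and Wnt1 were also above the median for that length. With the median coding transcript Tcf7 (2.91) and Rspo1 (2.88) were below it, and Lgr5 (3.55) was above it. The place of the Frizzled receptors depended on the scale, since 6 of 10 were above the median of all genes in average log2 CPM, and with the union of exons as length their median was above that of all genes by 0.61. The dot plot of levels by role shows all members on the scale before division by length.

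**Figure D1:**
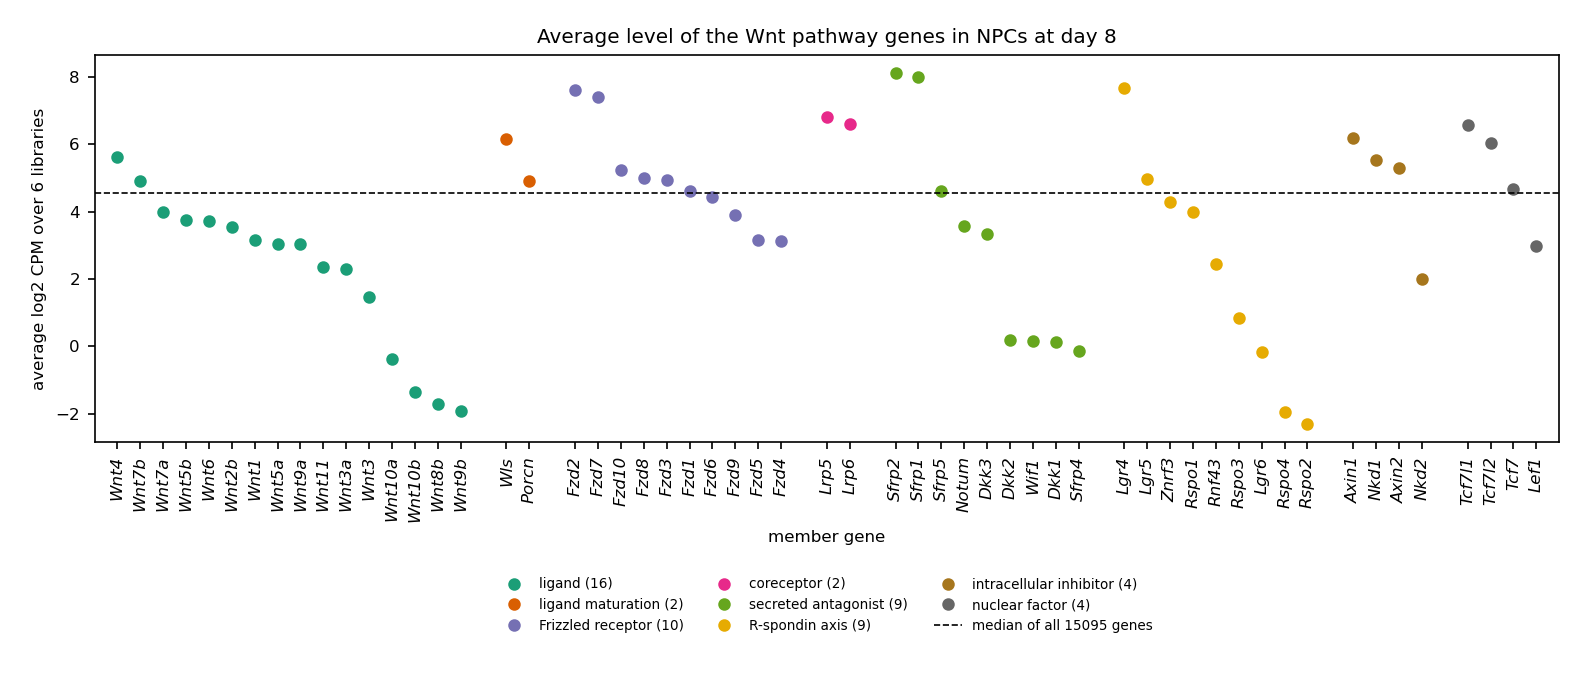
Average log2 CPM over the 6 libraries (vertical axis) of each of the 56 genes (horizontal axis), coloured by role, with the number of genes in brackets and a dashed line at the median of all 15095 genes (4.57). Each point is 1 pooled value with no error; Sfrp2 (8.13), Sfrp1 (7.996), Lgr4 (7.68) and Fzd2 (7.62) are at the top, and 8 genes are below 0.

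Among the ligands, Wnt4 and Wnt7b had the highest levels. Wnt4, a ligand of the dorsal neural tube that is also required for kidney tubules, was at 5.64 average log2 CPM and 3.43 per kilobase (3.31 to 5.57 over the 5 length measures). Wnt7b, a ligand of neural tissue that also acts on the vessels growing into it, was at 4.91 and at 3.11 per kilobase (2.55 to 4.82). Wnt4 was above Wnt7b under every length measure, by 0.33 on the log2 scale with the canonical transcripts. On the canonical scale these were the only ligands above the median of all genes. With the union of exons Wnt7a (2.28), Wnt6 (2.24) and Wnt1 (1.92) were also above the median for that length. Wnt4 and Wnt7b, together with Wnt5b, Wnt6 and Wnt7a, lay above the remaining ligands on the canonical scale.

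A middle set of ligands followed with little separation. Wnt5b was at 2.41 per kilobase, Wnt6 at 2.30, and Wnt7a, the close relative of Wnt7b, at 2.28, and the order within these ligands changed with the length measure. Wnt1, the classical ligand of the midbrain-hindbrain boundary and dorsal midline, was at 3.17 average log2 CPM and 1.92 per kilobase, and Wnt2b at 3.53 and 1.33, and the order of Wnt1 against Wnt2b and against Wnt5b also changed. Wnt9a was at 3.03 and 1.22 per kilobase.

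Wnt3a, the dorsal midline ligand that is widely used to activate the canonical pathway, was at 2.29 average log2 CPM and 0.82 per kilobase. Wnt11 and Wnt5a, best known for signalling independent of beta-catenin, were at 0.65 and 0.19 per kilobase, and the order within Wnt3a, Wnt11 and Wnt5a did not hold for all lengths. Wnt3, required in the embryo for gastrulation, was at 1.47 average log2 CPM and -0.19 per kilobase. The lowest 4 ligands followed after a gap of 1.49 per kilobase: Wnt10a at -1.67, Wnt10b at -3.24, Wnt8b, a ligand of the forebrain, at -3.47 and Wnt9b at -4.09, with an order of Wnt10b and Wnt8b that changed with the length. These 4 were the ligands below 0 in average log2 CPM, where the values rest on the fewest reads. Over all 120 pairs of ligands, 111 kept their order under the 5 length measures and 9 did not.

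Wls, which carries Wnt proteins to the cell surface, was at 6.15 average log2 CPM and 4.31 per kilobase, and Porcn, the enzyme that attaches their lipid, at 4.92 and 3.93. Both were above every ligand per kilobase of the canonical transcript, but not under every length measure. With the union of exons Wls (2.39) and Porcn (2.17) were below Wnt4 (3.31) and Wnt7b (2.55). With the coding sequence Wls (5.46) and Porcn (4.61) were below Wnt4 (5.57), and Porcn also below Wnt7b (4.82). With the longest transcript Porcn (3.21) was below Wnt4 (3.39).

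**Figure D2:**
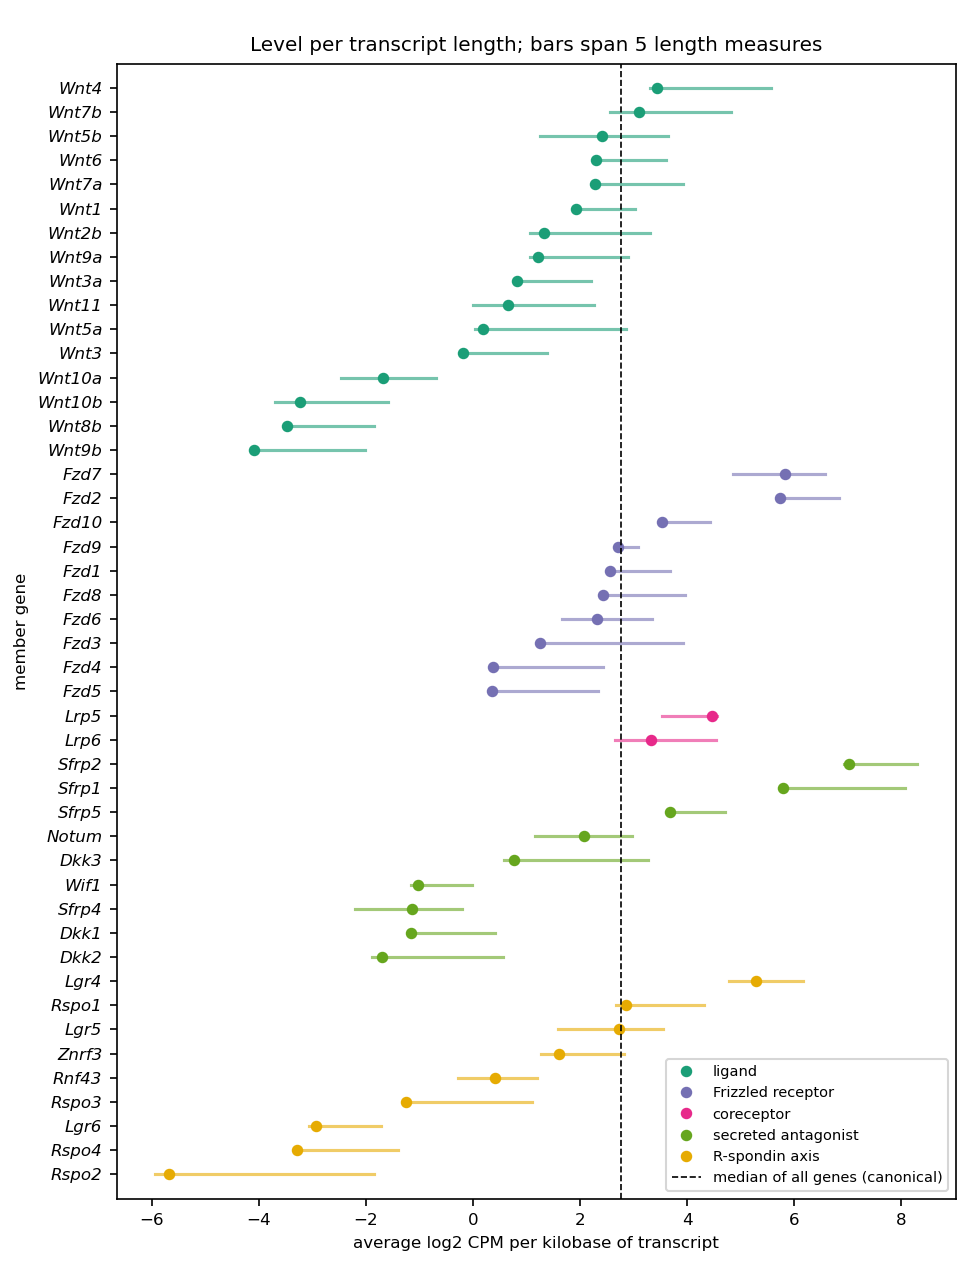
Average log2 CPM per kilobase (horizontal axis) of ligands, Frizzled receptors, coreceptors, secreted antagonists and the R-spondin group (vertical axis). Points use the canonical transcript, and bars span the lowest and highest of 5 length measures and are not replicate errors. The dashed line is the median of all genes for the canonical transcript only (2.77), and medians for the other lengths are not drawn. Bars wholly above this line are those of Wnt4, Fzd2, Fzd7, Fzd10, Lrp5, Sfrp2, Sfrp1, Sfrp5 and Lgr4. Bars wholly below it include those of the lowest 4 ligands.

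All 10 Frizzled receptors had a row, and Fzd2 and Fzd7 stood above the others. Fzd2 was at 7.62 average log2 CPM and 5.74 per kilobase, and Fzd7 at 7.41 and 5.84, and which of them was higher depended on the length measure. Fzd10, a Frizzled of the dorsal neural tube, came after a gap of 2.21 per kilobase below Fzd2, at 5.23 average log2 CPM and 3.53 per kilobase. Fzd9 was at 3.91 average log2 CPM and 2.71 per kilobase, Fzd1 at 4.63 and 2.56, Fzd8 at 5.00 and 2.43, and Fzd6 at 4.44 and 2.32. Fzd3, a receptor known for axon guidance and planar polarity, was at 4.93 average log2 CPM and 1.26 per kilobase (1.21 to 3.93 over the length measures). The order within Fzd9, Fzd1 and Fzd8, that of Fzd9 against Fzd6, and that of Fzd3 against Fzd9, Fzd1 and Fzd6 changed with the length.

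Fzd4 and Fzd5 were lowest, at 0.38 and 0.35 per kilobase, with 3.13 and 3.15 average log2 CPM and an order between them that changed with the length. No Frizzled gene was below 0 in average log2 CPM, whereas 4 of 16 ligands were. Fzd2 had a higher level per kilobase than Wnt4 under every length measure, since the lowest value of Fzd2 (5.74) exceeded the highest of Wnt4 (5.57). The coreceptors could not be ranked. Lrp5 was at 6.83 average log2 CPM and 4.46 per kilobase, Lrp6 at 6.61 and 3.33, and their order changed with the length measure.

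The secreted antagonists ranged from high to low levels, with Sfrp5, Notum and Dkk3 in between. Sfrp2 and Sfrp1, whose products bind Wnts through a domain like that of Frizzled receptors, were at 8.13 and 7.996 average log2 CPM. Per kilobase Sfrp2 was at 7.03 (6.93 to 8.31 over the length measures), higher than 97.2% of all genes on the canonical scale, and Sfrp1 at 5.79, with Sfrp2 higher by 1.24 and in this order under each measure. Sfrp5 followed at 4.62 average log2 CPM and 3.69 per kilobase. Notum, the enzyme that removes the lipid from Wnts, was at 3.56 and 2.08, and Dkk3, a divergent Dickkopf protein, at 3.35 and 0.76, and their order changed with the length.

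The 4 remaining antagonists were near 0 in average log2 CPM. Dkk2 was at 0.19, Wif1, which binds Wnts, at 0.17, Dkk1, which blocks LRP5 and LRP6, at 0.12, and Sfrp4 at -0.13. Per kilobase they lay between -1.70 (Dkk2) and -1.03 (Wif1), and the order of neighbours among them changed with the length measure.

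R-spondins raise the Frizzled receptors on the cell surface by binding LGR4, LGR5 or LGR6 and removing the ubiquitin ligases ZNRF3 and RNF43, which would otherwise clear Frizzled. Of these genes Lgr4 was highest, at 7.68 average log2 CPM and 5.29 per kilobase (4.78 to 6.16). Lgr5, a target of canonical signalling known from intestinal stem cells, was at 4.96 and 2.72, and Lgr6 at -0.18 and -2.94. Among the ligands of these receptors Rspo1 was at 3.99 average log2 CPM and 2.86 per kilobase, and its order with Lgr5 changed with the length. Rspo3, the other R-spondin above 0, was at 0.83 and -1.25, and Rspo4 (-1.95 and -3.29) and Rspo2 (-2.31 and -5.68) were near the lower end of the table. The order of Lgr6 and Rspo4 changed with the length. Znrf3 was at 4.28 and 1.60 and Rnf43 at 2.44 and 0.42.

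Inside the cell, the scaffold of the destruction complex Axin1 was at 6.20 average log2 CPM and 4.29 per kilobase and Axin2, its relative and a general target of canonical signalling, at 5.28 and 3.14. Nkd1, which binds Dishevelled, was at 5.54 and 3.91, and its order against each of the Axin genes changed with the length. Nkd2 was lower under every measure, at 2.003 average log2 CPM, with 3.14 per kilobase between it and Axin2. Of the nuclear factors, Tcf7l1, which acts mostly as a repressor, was highest at 6.57 and 4.80 per kilobase, before Tcf7l2 (6.04 and 3.996), Tcf7 (4.68 and 2.88) and Lef1 (2.99 and 1.64), which acts mostly as an activator. All 6 pairs of these factors kept their order under the 5 length measures.

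The share of each gene in the summed CPM per kilobase of its family was also taken. In a family of 3 or 4 genes a few genes hold most of the sum whatever their levels. Sfrp2 made up 65.5% of the 4 Sfrp genes (51.5% to 65.7% over the length measures) and Sfrp1 27.7% (27.6% to 44.1%). Rspo1 made up 93.1% of the 4 R-spondins (87.7% to 93.1%), Lgr4 85.4% of Lgr4 to Lgr6 (77.0% to 89.7%) and Dkk3 69.2% of the 3 listed Dkk genes (67.5% to 77.6%). Fzd7 and Fzd2 made up 38.1% (24.1% to 38.1%) and 35.7% (35.7% to 44.7%) of the Frizzled receptors. Of the 16 Wnt ligands, Wnt4 made up 22.0% (21.8% to 29.3%) and Wnt7b 17.6% (14.4% to 17.9%). Wnt5b made up 10.9% (5.83% to 10.9%), Wnt6 10.04% (7.52% to 11.6%) and Wnt7a 9.88% (9.42% to 11.9%). The families differ in their number of genes, so the largest share does not rank them by evenness. Tcf7l1 made up 51.4% of the Lef1 and Tcf7 factors (45.1% to 55.1%), Tcf7l2 29.3% (22.2% to 31.5%) and Lef1 5.73% (2.57% to 6.37%). These shares are of RNA, pooled over both genotypes.

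**Figure D3:**
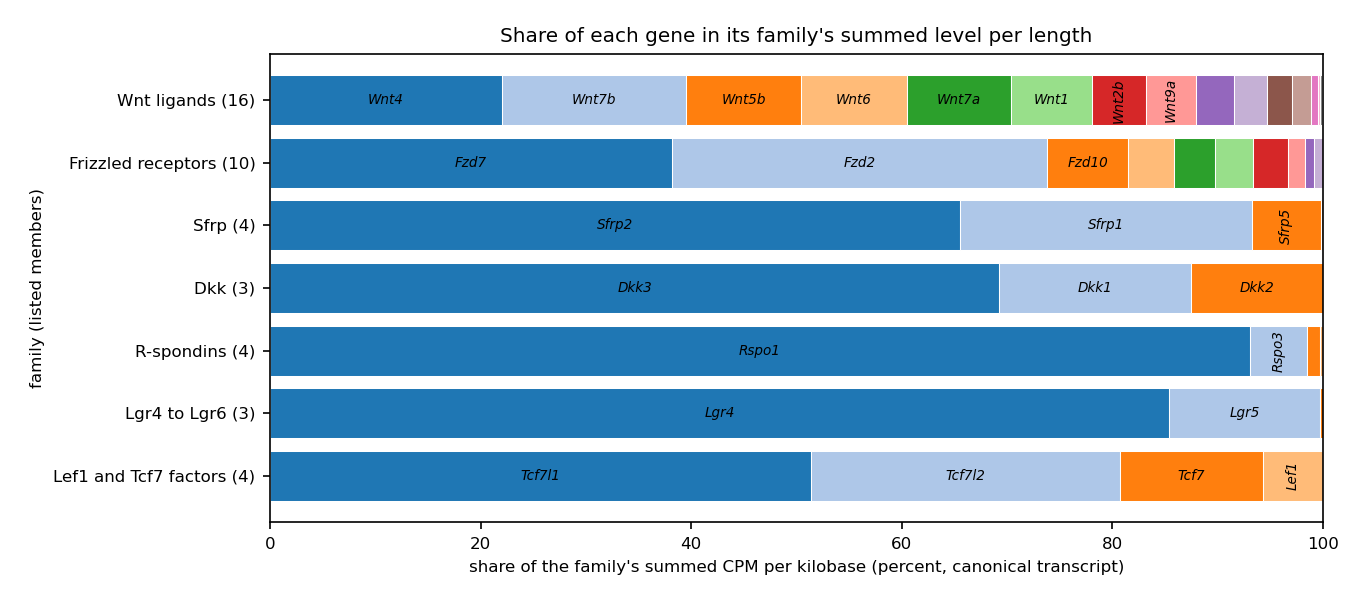
Share of each gene in the summed CPM per kilobase of the canonical transcript of its family (horizontal axis, percent), for 7 families (vertical axis, number of listed genes in brackets). Rspo1 (93.1%), Lgr4 (85.4%), Dkk3 (69.2%) and Sfrp2 (65.5%) each fill most of their bar, and the largest part of the Wnt bar is Wnt4 with 22.0%. The families differ in their number of genes, so these parts do not compare how evenly the families are spread.

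Some of the listed Wnt genes lie in pairs in the genome, and the members of a pair could be set side by side (GRCm39 positions from the reference annotation). Wnt6 (chr1:74810922-74824975, plus strand) and Wnt10a (chr1:74830675-74844355, plus strand) are 5.70 kb apart and were at 2.30 and -1.67 per kilobase. Wnt3a and Wnt9a, on opposite strands of chromosome 11 with 16.0 kb between them, were at 0.82 and 1.22, and Wnt9b and Wnt3, on the same chromosome with 24.3 kb between them, at -4.09 and -0.19. The spans of Wnt1 (chr15:98687738-98691718, plus strand) and Wnt10b (chr15:98668593-98690045, minus strand) overlap, and these genes were at 1.92 and -3.24. Their canonical transcripts do not overlap, and the starts of these transcripts are 11.3 kb apart. No other protein-coding gene lies between the members of these 4 pairs.

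Where genes overlap, the value of a member may hold reads of its partner, because it is not given whether the counting used the strand of these strand-specific libraries. Of the 56 members, 33 share exon bases with a gene on the other strand and 0 with a gene on the same strand. For Wnt1 and Wnt10b this is 489 bases, or 20.6% of the exons of Wnt1 and 9.61% of those of Wnt10b. It is 21.8% of the exons of Wnt5b (with Fbxl14), 30.6% of Fzd10 (with Fzd10os), 38.3% of Notum (with Notumos), 21.0% of Sfrp2 (with Gm26771), 18.1% of Fzd5 (with Gm38058) and 16.3% of Lef1 (with Lef1os1). The part of these overlaps in the levels was not tested.

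RefSeq promoter windows (GRCm38.p6, 300 bases: 250 before the annotated start and 50 after) were found by symbol for 37 of the 56 members, in 46 windows. Both GRCm38.p6 and GRCm39 positions are given with their build, and the builds cannot be mixed. The 250 bases before the start are shown for 4 genes: Wnt4 and Sfrp2 as the ligand and the antagonist with the highest level per kilobase, with each CpG in capitals, and Dkk1 and Lef1 as the members with the most matches to the LEF and TCF core motif CTTTGA, whose reverse complement is TCAAAG, with the motif in capitals. All are written 5′ to 3′ on the strand of the gene: Wnt4 from chr4:137277385-137277634 (plus strand), Sfrp2 from chr3:83766071-83766320 (plus strand), Dkk1 from chr19:30549497-30549746 (minus strand) and Lef1 from chr3:131156044-131156293 (plus strand), the last being 1 of 4 windows of that gene.
Wnt4: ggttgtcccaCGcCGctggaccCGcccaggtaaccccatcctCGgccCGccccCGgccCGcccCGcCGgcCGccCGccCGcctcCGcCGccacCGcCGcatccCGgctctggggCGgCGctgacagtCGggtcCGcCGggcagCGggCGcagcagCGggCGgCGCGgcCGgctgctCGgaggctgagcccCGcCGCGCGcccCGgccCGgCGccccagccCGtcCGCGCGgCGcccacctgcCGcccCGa
Sfrp2: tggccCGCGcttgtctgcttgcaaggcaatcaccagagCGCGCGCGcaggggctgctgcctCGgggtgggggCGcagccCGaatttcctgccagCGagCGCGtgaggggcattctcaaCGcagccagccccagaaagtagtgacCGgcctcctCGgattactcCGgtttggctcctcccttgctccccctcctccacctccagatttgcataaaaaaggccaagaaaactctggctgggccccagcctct
Dkk1: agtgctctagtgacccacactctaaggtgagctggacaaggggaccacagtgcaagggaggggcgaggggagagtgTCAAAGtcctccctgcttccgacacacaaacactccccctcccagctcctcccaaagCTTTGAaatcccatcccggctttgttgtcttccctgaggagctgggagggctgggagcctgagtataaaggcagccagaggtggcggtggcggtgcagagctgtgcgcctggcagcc
Lef1: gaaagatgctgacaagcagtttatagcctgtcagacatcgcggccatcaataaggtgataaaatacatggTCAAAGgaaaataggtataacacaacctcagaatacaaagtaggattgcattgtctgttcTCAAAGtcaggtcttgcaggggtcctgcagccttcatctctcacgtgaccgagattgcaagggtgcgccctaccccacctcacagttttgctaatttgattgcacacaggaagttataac

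The Wnt4 stretch holds 44 CpGs in 85.2% G and C, and the Sfrp2 stretch 16 CpGs in 63.6%. In Dkk1 the motif begins 174 and 117 bases before the start, once on each strand. In the shown Lef1 window it begins 180 and 120 bases before the start, both times on the strand opposite to the gene. That window is the furthest downstream of the Lef1 windows. The others, from chr3:131110047, chr3:131110073 and chr3:131112541 (GRCm38.p6), held 0 matches. Over all windows, CTTTGA on either strand occurred in 5 of 46 member windows (10.9%), from Dkk1, Lef1, Fzd1, Wnt11 and Wnt5b, against 11.9% of the 14876 windows of genes in the table and 16.0% of all 32851 RefSeq windows. The share in the members was thus near that of the other genes. TATAAA on either strand occurred in 8 of 46 (17.4%), from Dkk1, Dkk2, Fzd1, Lef1, Tcf7, Tcf7l2, Wif1 and Wnt11, against 7.28% and 13.6%. A window counted once however many matches it held. A match is a run of letters and not a known binding site, and no test was made.

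Taking for each gene its window with the most CpGs, the 37 members had a median of 29 CpGs, the 11669 genes of the table with a window 21 and all 27025 genes 8. At least 20 CpGs were found in 27 of the 37 members (73.0%), in 56.2% of the genes of the table and in 28.8% of all genes. Wnt9a (58), Fzd9 (53) and Wnt4 (51) had the most, and Nkd1 (6), Wnt8b (6) and Dkk1 (9) were the 3 members under 10. Levels varied widely at a given number of CpGs: Wnt9b and Rspo1, both with 29, were at -4.09 and 2.86 average log2 CPM per kilobase, and Nkd1 and Wnt8b, both with 6, at 3.91 and -3.47.

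**Figure D4:**
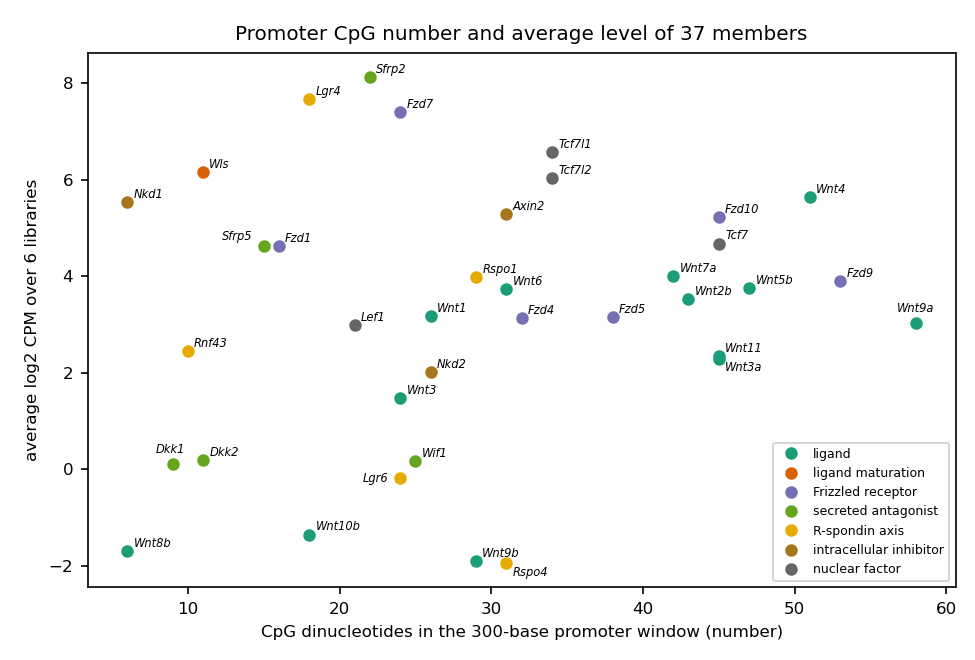
Number of CpG dinucleotides in the 300-base promoter window (horizontal axis; the window with the most CpGs for each gene) and average log2 CPM over the 6 libraries (vertical axis) for 37 members, coloured by role. Genes at both ends of the level scale share CpG numbers, such as Wnt9b (-1.91) and Rspo1 (3.99) at 29 CpGs, on a scale not divided by length.

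Other genes of the canonical pathway were taken from a list of 24 core components, which does not hold every gene of the pathway. All 24 had a row, with a median of 4.59 average log2 CPM per kilobase and 20 of 24 above the median of all genes on that scale. Per kilobase of the canonical transcript the highest were Ctnnb1 (8.08), which encodes beta-catenin, and the casein kinases Csnk1e (7.74) and Csnk1d (6.96), and the lowest was Amer1 (1.98). Csnk1a1, a kinase that primes beta-catenin for destruction, was at 6.91, the phosphatase subunit Ppp2ca at 5.67 and the corepressor Tle2 at 2.03. Of a list of 24 genes known as targets of canonical signalling, 23 had a row, with a median of 1.60 per kilobase and 6 of 23 above the median of all genes. That list shares 10 genes with the members, among them Axin2, Nkd1 and Lgr5. Highest per kilobase were Ccnd1 (6.29), a cyclin, Tcf7l1 (4.80) and the transcription factor Sp8 (3.98), and Fgf8 was lowest (-1.66). Other length measures were not tried for these lists. Levels of target genes in a pool of both genotypes do not show how active the pathway was.

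**Figure D5:**
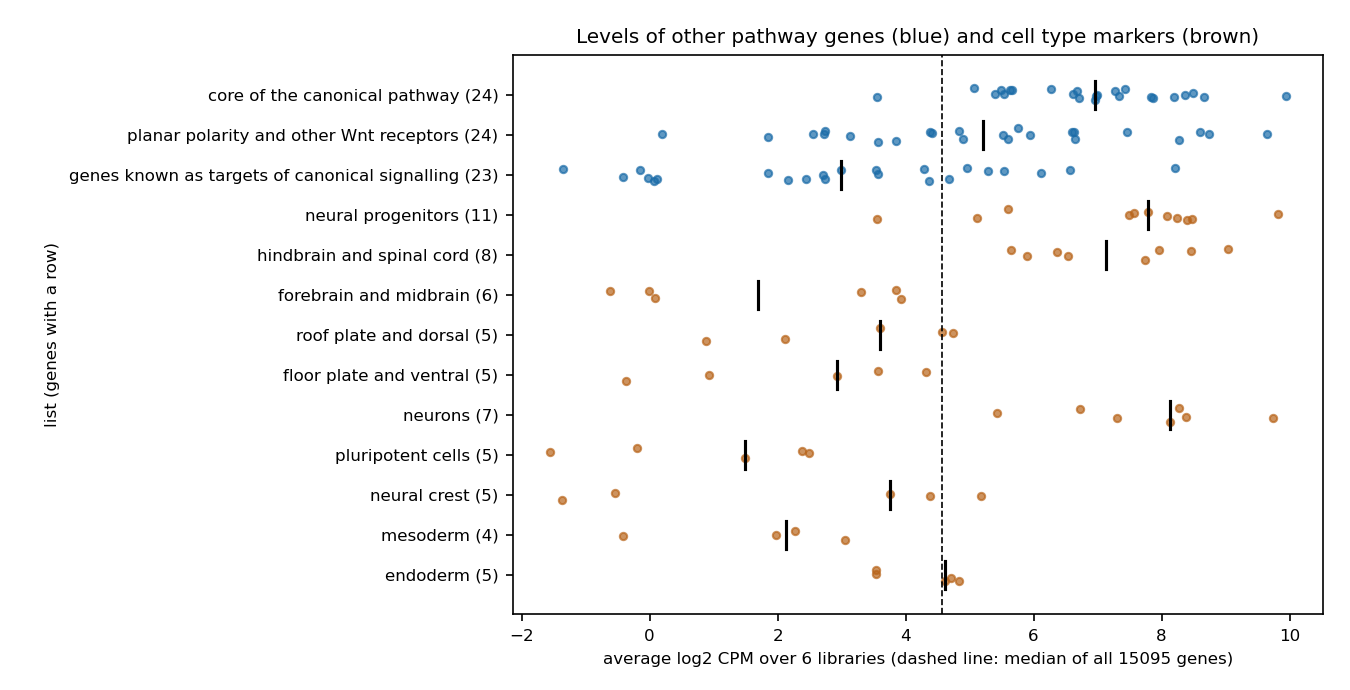
Average log2 CPM over the 6 libraries (horizontal axis) of each gene in 3 lists of other pathway genes (blue) and 10 lists of cell type markers (brown), named on the vertical axis with the number of genes with a row. Black bars are medians and the dashed line is the median of all genes (4.57); the core of the pathway (median 6.97), neural progenitors (7.78), hindbrain and spinal cord (7.13) and neurons (8.13) lie to its right, forebrain and midbrain (1.69) and pluripotent cells (1.49) to its left.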

How the data were processed

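PolyA RNA-seq of 3 wild-type and 3 Setd2-KO NPC libraries was used as 1 deposited table of 15095 genes, grouped by the labels' genotype. The values used are the average log2 CPM over the 6 libraries, computed by the authors with edgeR on normalized counts. The other columns hold the log2 fold change, an unshrunk log2 fold change, the p-value and the FDR of the authors' own comparison and were not used. Tools named in the submitters' notes are edgeR, STAR and Trim Galore, and their builds are mm9 and NCBIM37 without a stated role, whereas the study's methods name GRCm39 and a newer pipeline (nf-core/rnaseq with Salmon, a filter on low counts and TMM). The depth per library is unknown, so precision cannot be given. The table holds 0 other columns of single samples.

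Gene IDs were matched without version to GENCODE vM39 (GRCm39): 15066 were found, 29 were not, and 603 symbols differed, 0 of them among the 56 members. Of the matched IDs 15053 carried a lower version, members included, so the lengths come from a newer annotation than the counts and are approximate. Level per kilobase was the average log2 CPM minus log2 of the length, for the canonical transcript, the union of exons, the longest transcript, the coding sequence and the median coding transcript. Every member is named with its values. Of the pathway lists the 3 highest and the lowest genes are named, by average log2 CPM and by level per kilobase, the latter chosen after the values were seen. Marker lists are given by their medians. Members and lists were chosen with earlier results of these data known, and the promoter motifs after the table had been read. No test was run, since each gene has 1 pooled value. The steps were checked on simulated data. Python 3.11.15, numpy 2.4.6, pandas 2.3.3 and matplotlib 3.10.9 were used.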

Additional observations from a re-analysis of the deposited data

How the results depend on the processing

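Each group's median minus the median of the table was recomputed on another scale, background, filter or length, and a value that moved by less than 1.5-fold (0.585 on the log2 scale) was taken as kept, whatever its sign. The 56 members were the same number with the symbols of the reference. All 10 values were kept with protein-coding genes only, and all 9 with the longest transcript and with the median coding transcript. Per kilobase instead of log2 CPM, the coreceptors moved from 2.15 to 1.12 and the secreted antagonists from -1.22 to -2.01. With only genes of at least 0, the R-spondin group moved from -2.13 to -0.82, since the filter removes its lowest genes. With the union of exons, the ligands moved per kilobase from -1.75 to -0.95, ligand maturation from 1.35 to 0.39, the secreted antagonists from -2.01 to -1.31 and the Frizzled receptors from -0.28 to 0.61. The Frizzled value had no stable sign: it was 0.21 in log2 CPM, -0.18 with only genes of at least 0 and 0.04 per kilobase of the longest transcript. With the coding sequence, the coreceptors moved from 1.12 to 0.38 and the secreted antagonists from -2.01 to -1.10. The cause of the shifts with length was not tested beyond the lengths themselves, which differed within a member by a median of 3.45-fold and at most 17.0-fold. The planned comparison of protein sequences was not run. No paired analysis was possible because each gene has 1 value pooled over all libraries, and for the same reason no replicate could be left out. Depth is unknown, and the 8 members below 0 rest on the fewest reads.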

Other observations

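A further list of 24 genes held planar polarity genes, other Wnt receptors and regulators at the cell surface, some of which act on the canonical pathway. All 24 had a row, with a median of 2.83 average log2 CPM per kilobase and 12 of 24 above the median of all genes on that scale. The highest per kilobase of the canonical transcript were Gpc3 (7.39), a cell-surface proteoglycan, Celsr2 (6.16), a cadherin of planar polarity, and Vangl2 (6.08), a core planar polarity protein, and Kremen2, which acts with Dickkopf proteins, was lowest (-0.92). Among Wnt receptors that are not Frizzled, Ryk was at 5.04, Ror2 at 2.42 and Ror1 at -0.68 on that scale. These values are averages over both genotypes with no error.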
